A study of Homo sapiens with 6 samples.

Results

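The mitotic spindle is built by proteins that nucleate, lengthen, bundle and anchor microtubules, and 10 genes of this kind that are not kinesins are described here: ASPM, TPX2, NUSAP1, HMMR, DLGAP5, CKAP2, CKAP5, TACC3, SPAG5 and FAM83D. They were chosen as listed spindle assembly proteins. Earlier results of these data were known when these genes and the related lists below were chosen. Of the 10 genes, 9 were measured among 22411 genes by an array row that carries their symbol alone. SPAG5 had no such row. RNA came from U87 cells, an established human glioblastoma line, on 6 Affymetrix whole-transcript arrays. The treated group held 3 arrays of cells exposed to 1 mM of an amino acid carrying a carborane for 48 h, a compound with a cage of boron, carbon and hydrogen that is known here by this description alone. The control group held 3 arrays of cells with no treatment, and no vehicle is named. All cells had grown for 48 h beforehand in EMEM with 10% serum and 1 mM pyruvate. The labels call the experiment triplicate without saying that the cultures were separate. The p-values thus reflect only variation among these 3 samples a group, with each gene's variance drawn toward that of all genes. That variation may be technical.

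Most spindle proteins of this kind are made anew in each cell cycle, with their mRNAs low in resting and early cycling cells and highest shortly before and during mitosis, and several of the proteins are destroyed as mitosis ends. At mitotic entry, a gradient of the GTPase Ran around the chromosomes frees TPX2 from importins, and TPX2 then activates the kinase Aurora A and starts new microtubules. ASPM and HMMR act at spindle poles, NUSAP1 and DLGAP5 on microtubules near chromosomes, and TACC3 with CKAP5 and clathrin on the fibres that reach the kinetochores. Many promoters of such genes hold a CHR, the cell cycle genes homology region read by the MuvB complex, together with boxes for the factor NF-Y.

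Promoter sequences were examined because all 9 measured genes were lower after treatment. Windows around the annotated gene start were present in the RefSeq table (GRCh38.p14) for 8 of the 10 genes, reaching from 250 bases before the start to 50 after it, and TPX2 and FAM83D had none. The sequences below run 5′ to 3′ on the gene's own strand, from 250 bases before the start to 30 after it. Capitals mark the CHR-type motifs (TTTGAA or TTCGAA or TTTAAA) and the NF-Y box CCAAT, searched on both strands, so that TTCAAA and ATTGG are the reverse forms. Shown first are the genes with falls of more than 5 on the log2 scale that had a window, then CKAP5, a gene with a smaller fall that also held matches, then CKAP2 and TACC3, which held none.
DLGAP5 (chr14:55191556-55191835, minus strand): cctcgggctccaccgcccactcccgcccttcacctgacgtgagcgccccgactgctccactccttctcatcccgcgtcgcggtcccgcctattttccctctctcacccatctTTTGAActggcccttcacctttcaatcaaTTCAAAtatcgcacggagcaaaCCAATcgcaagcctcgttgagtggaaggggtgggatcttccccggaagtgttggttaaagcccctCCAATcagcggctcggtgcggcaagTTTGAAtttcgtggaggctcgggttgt
ASPM (chr1:197146640-197146919, minus strand): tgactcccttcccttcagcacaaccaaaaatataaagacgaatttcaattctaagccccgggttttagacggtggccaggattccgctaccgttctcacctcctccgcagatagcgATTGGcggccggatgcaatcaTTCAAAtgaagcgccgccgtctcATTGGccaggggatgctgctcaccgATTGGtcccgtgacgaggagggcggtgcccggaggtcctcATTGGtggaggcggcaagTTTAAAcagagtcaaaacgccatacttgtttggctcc
NUSAP1 (chr15:41332631-41332910, plus strand): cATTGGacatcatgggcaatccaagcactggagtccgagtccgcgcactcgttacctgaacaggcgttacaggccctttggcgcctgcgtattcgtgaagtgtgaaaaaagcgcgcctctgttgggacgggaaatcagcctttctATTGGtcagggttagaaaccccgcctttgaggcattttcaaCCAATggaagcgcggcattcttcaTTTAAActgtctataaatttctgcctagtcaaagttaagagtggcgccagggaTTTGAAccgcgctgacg
HMMR (chr5:163460382-163460661, plus strand): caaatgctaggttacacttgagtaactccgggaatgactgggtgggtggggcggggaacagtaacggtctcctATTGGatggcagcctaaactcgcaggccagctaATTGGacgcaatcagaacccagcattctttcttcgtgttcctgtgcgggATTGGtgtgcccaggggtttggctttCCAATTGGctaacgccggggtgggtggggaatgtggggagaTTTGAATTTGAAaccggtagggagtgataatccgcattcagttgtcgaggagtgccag
CKAP5 (chr11:46846251-46846530, minus strand): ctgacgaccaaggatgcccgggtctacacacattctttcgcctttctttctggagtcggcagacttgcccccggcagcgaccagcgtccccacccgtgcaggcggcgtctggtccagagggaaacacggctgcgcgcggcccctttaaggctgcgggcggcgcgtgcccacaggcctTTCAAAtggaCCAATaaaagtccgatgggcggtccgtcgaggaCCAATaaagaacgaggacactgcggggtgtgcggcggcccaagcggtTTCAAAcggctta
CKAP2 (chr13:52455738-52456017, plus strand): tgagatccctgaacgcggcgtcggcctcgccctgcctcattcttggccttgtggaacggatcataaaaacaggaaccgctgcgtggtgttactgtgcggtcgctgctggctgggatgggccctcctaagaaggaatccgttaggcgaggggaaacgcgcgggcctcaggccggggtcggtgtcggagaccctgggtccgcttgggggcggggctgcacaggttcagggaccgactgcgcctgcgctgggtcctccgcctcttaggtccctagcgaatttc
TACC3 (chr4:1720381-1720660, plus strand): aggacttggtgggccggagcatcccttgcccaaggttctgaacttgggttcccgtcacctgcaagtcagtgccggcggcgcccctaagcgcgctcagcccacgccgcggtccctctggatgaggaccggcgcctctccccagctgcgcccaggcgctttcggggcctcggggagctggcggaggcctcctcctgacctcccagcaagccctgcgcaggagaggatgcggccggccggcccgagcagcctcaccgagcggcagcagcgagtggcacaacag

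A CHR-type motif was present in 6 of the 8 windows, against 25.3% of 27305 gene windows in the table. Each of the 6 held TTTGAA, which 15.4% of all windows hold, and ASPM and NUSAP1 held TTTAAA as well. In these same 6 windows at least 1 CHR-type match lay between 50 bases before and 50 bases after the start, where 8.13% of all windows have one. HMMR held TTTGAA in a tandem pair from 28 to 17 bases before the start. DLGAP5 held TTTGAA 4 bases after the start as well as further upstream. ASPM held TTTAAA 7 bases before the start, and its TTTGAA lay from 113 to 108 bases before it. SPAG5, whose window is not printed, held 1 reverse TTTGAA beginning 4 bases after the start. CCAAT boxes occurred 2 or more times in 5 of the 8 windows (DLGAP5, ASPM, NUSAP1, HMMR and CKAP5), against 11.3% of all windows. HMMR had 5 of them, of which a pair overlap each other, ASPM had 4, NUSAP1 3, and DLGAP5 and CKAP5 2 each. Among 13935 windows of tested protein-coding genes, 20.5% held a CHR-type motif and 12.1% held TTTGAA. In the same windows, 5.84% had a CHR-type match within 50 bases of the start, and 12.6% had 2 or more CCAAT boxes. None of the searched letters stood in the CKAP2 and TACC3 windows, which says nothing about sequence outside them. These matches describe letters in a fixed window and are not evidence of binding.

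**Figure D1:**
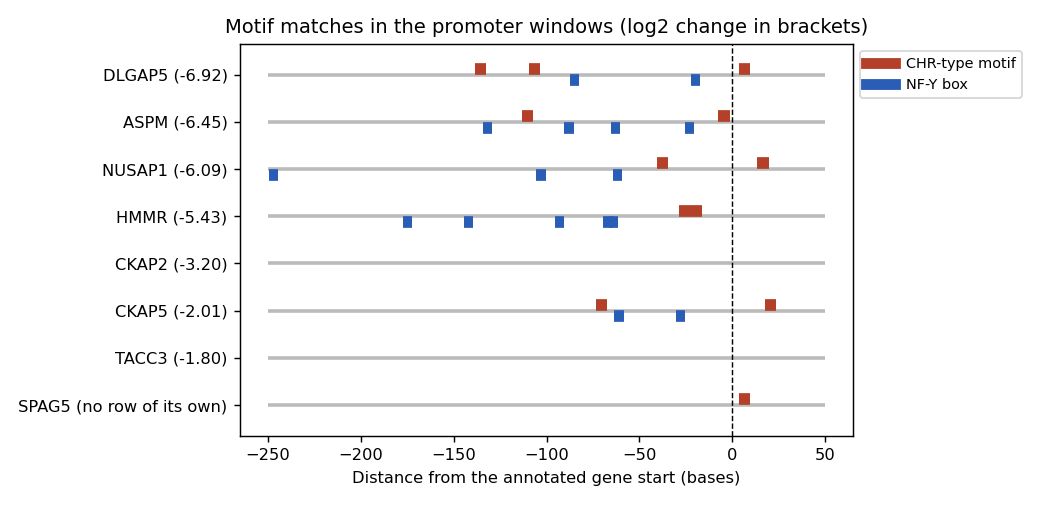
Matches to CHR-type motifs (red) and to the NF-Y box CCAAT (blue) along the promoter windows of 8 spindle genes, by distance in bases from the annotated start, with each gene's log2 change in brackets. The upper 4 genes and CKAP5 carry both kinds of match, CKAP2 and TACC3 carry neither, and SPAG5 has a single CHR-type match.

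All 9 measured spindle genes fell in treated cells, with log2 changes of -6.92 to -1.80 and a median log2 change of -5.39 against 0.01 for all genes tested. Each passed the test used throughout, limma across all 22411 genes with Benjamini-Hochberg adjustment and a threshold of 0.05. Of all genes, 45.6% were called in either direction and 21.6% were called lower. A called fall of at least 1 on the log2 scale, which all 9 had, was seen in 4.94% of all genes. In each of the 9 the highest treated array lay below the lowest control array, as in 25.8% of all genes. In bulk RNA, fewer cells in mitosis and less of these mRNAs per cell cannot be told apart. Values are log2 signals from RMA, the robust multi-array average, which corrects background, equalises the arrays and summarises each gene's probes. On this scale the middle gene of an array stood at 6.06 to 6.10, close to background, and some values above 16 exceed a 16-bit reading, so the scale may have been widened, which would enlarge every log2 change.

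DLGAP5, which stabilises the microtubule fibres at kinetochores, showed the largest fall of the group and the 5th largest of all genes tested. Its signal was 6.18, 6.30 and 6.42 in treated arrays, against 13.09, 13.27 and 13.31 in control arrays. The treated arrays lay just above the array medians, where signal is low, which leaves the size and rank of its fall uncertain. The control arrays lay far above those medians. The log2 change was -6.92 (SE 0.08, 95% interval -7.12 to -6.73, adjusted p = 1.09e-08, limma). The RefSeq gene table lists the pseudogenes DLGAP5P1 and DLGAP5P2, which no row names, so shared signal between the copies could not be checked.

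ASPM, which focuses microtubule minus ends at the poles and is known for its mutation in primary microcephaly, measured 5.44, 5.66 and 5.38 in treated cells and 11.93, 11.96 and 11.94 in control cells. All treated values lay below the array medians, so the size of its log2 change of -6.45 (SE 0.08, limma adjusted p = 1.09e-08) is uncertain. The control arrays differed from each other by no more than 0.03. HMMR, a spindle pole protein that is also a receptor for hyaluronan, stood at 5.83, 5.72 and 5.68 in treated arrays, against 11.14, 11.16 and 11.21 in control arrays. Here too the treated signal was below the array medians, and the log2 change was -5.43 (SE 0.05, limma adjusted p = 8.65e-09). The annotation places the antisense gene HMMR-AS1 over HMMR, and no row of its own gave that gene a value here.

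NUSAP1, which bundles microtubules around mitotic chromosomes, had signals of 6.88, 6.68 and 6.73 in treated cells, against 12.81, 12.81 and 12.93 in control cells. The log2 change was -6.09 (SE 0.07, limma adjusted p = 1.09e-08). Its treated mean of 6.76 was not far above the array medians, so the size is uncertain. TPX2, the Ran-regulated activator of Aurora A, gave 9.23, 9.11 and 9.16 in treated arrays and 14.54, 14.52 and 14.61 in control arrays. Unlike the preceding genes, TPX2 kept a treated signal about 3 log2 units above the array medians, so its log2 change of -5.39 (SE 0.05, 95% interval -5.51 to -5.27, limma adjusted p = 6.78e-09) was measured clear of background in both groups.

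**Figure D2:**
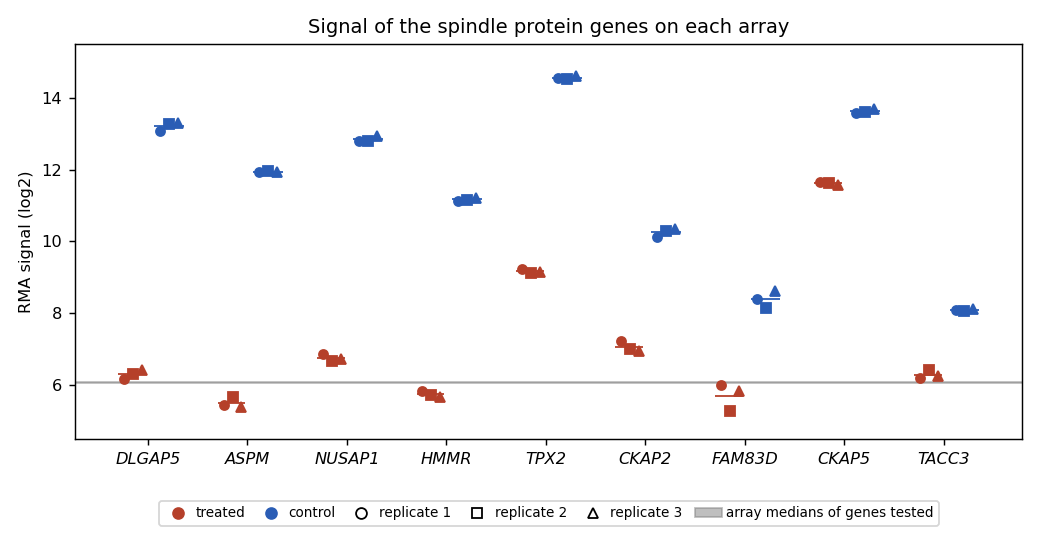
RMA log2 signal of the 9 measured spindle genes on each of the 6 arrays, treated (red) left of control (blue), with symbols for replicates, short lines for group means and a grey band for the array medians of all genes tested. No gene has overlapping groups, and ASPM, HMMR and FAM83D have treated means under the band.

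The remaining 4 genes fell by less. CKAP2, a microtubule-binding protein that promotes polymer growth, measured 7.23, 7.00 and 6.95 in treated cells and 10.13, 10.30 and 10.36 in control cells. Its log2 change was -3.20 (SE 0.09, limma adjusted p = 3.32e-07). A pseudogene, CKAP2P1, is listed in the gene table and has no row of its own. FAM83D, which brings casein kinase 1 alpha to the spindle, was the most variable of the 9 genes within groups. It gave 6.01, 5.28 and 5.84 in treated arrays, against 8.41, 8.14 and 8.63 in control arrays. The groups stayed apart despite an SE of 0.20, larger than the 0.05 to 0.09 of the other genes, and the log2 change was -2.68 (95% interval -3.17 to -2.20, limma adjusted p = 3.23e-05). Its treated mean of 5.71 lay below the array medians, so the size is uncertain.

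CKAP5, the microtubule polymerase also called ch-TOG, kept a high signal after treatment, at 11.66, 11.64 and 11.56, against 13.59, 13.60 and 13.69 in control arrays. The log2 change was -2.01 (SE 0.05, limma adjusted p = 1.72e-07), and neither group was near background. SNORD67, a small nucleolar RNA gene that overlaps CKAP5 in the annotation, had a log2 change of -0.76 (limma adjusted p = 0.00220), with both groups below the array medians. TACC3, which joins CKAP5 and clathrin in the bridges between kinetochore fibre microtubules, gave 6.21, 6.41 and 6.25 in treated cells and 8.08, 8.07 and 8.11 in control cells. Its log2 change of -1.80 (SE 0.06, limma adjusted p = 6.22e-07) was the smallest of the group, and its size is uncertain because the treated signal was close to the array medians. TACC3 overlaps TMEM129 in the annotation, and TMEM129 rose by 0.40 on the log2 scale (limma adjusted p = 0.00213). For SPAG5, an adaptor of kinetochores and centrosomes, the table has a row annotated with both SGK494 and SPAG5. That row read 7.26, 7.13 and 7.22 in treated arrays and 8.94, 8.82 and 8.94 in control arrays, a difference of -1.70, which cannot be assigned to either gene and was not tested.

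The sizes of change fell into 2 ranges, with 5 genes at -5.39 or lower and 4 between -3.20 and -1.80. In the order DLGAP5, ASPM, NUSAP1, HMMR, TPX2, CKAP2, FAM83D, CKAP5, TACC3, the 95% intervals of neighbours overlapped for HMMR and TPX2, for CKAP2 and FAM83D, and for CKAP5 and TACC3. The other neighbouring intervals did not overlap. All 5 genes of the first range were among the 25 largest falls of the whole table. Control means of 8.09 for TACC3 and 8.39 for FAM83D left little room above background for falls of that size. Probe sets can differ in how strongly they respond. After treatment 3 of the 9 genes ended below the array medians, with DLGAP5 and TACC3 just above them and NUSAP1 a little further above. The order thus describes signals and not mRNA copies.

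**Figure D3:**
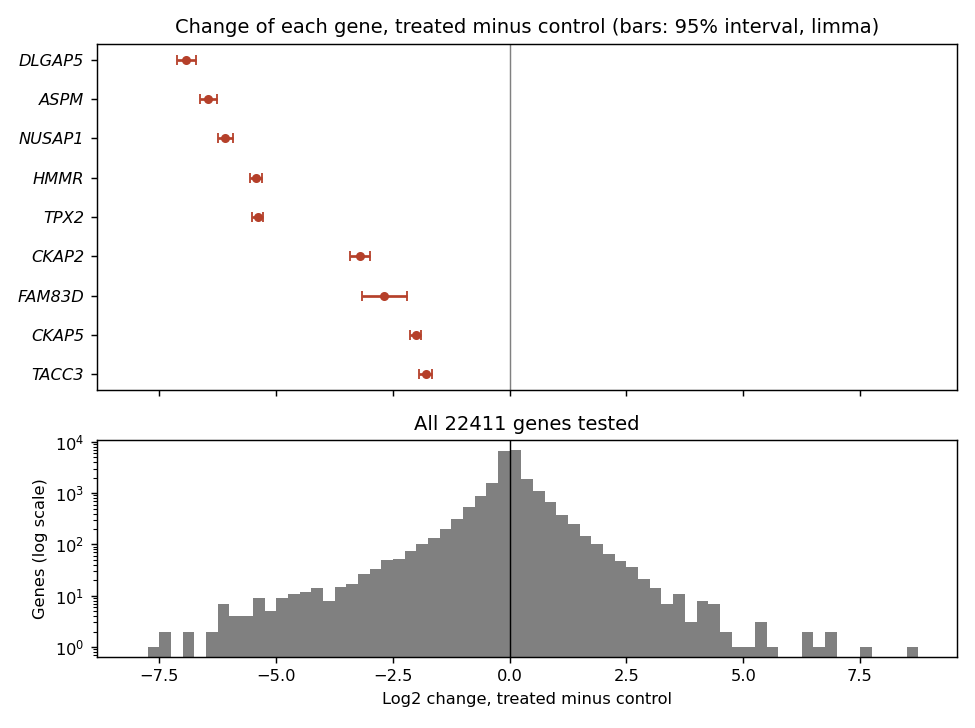
Log2 change (treated minus control) of the 9 measured spindle genes with 95% limma intervals, above a histogram of the changes of all genes tested on a log count axis. The spindle genes lie between -6.92 and -1.80, in the lower tail of a distribution centred near 0.

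Within groups, the order of the arrays was alike for many of the spindle genes. Among the control arrays, replicate 3 had the highest signal for 8 of the 9 genes, the exception being ASPM, and replicate 3 was the highest control for 28.9% of all genes and 37.6% of the genes called lower. Its deviation from the control mean had a median of 0.06 over the 9 genes. In the treated group, replicate 1 was highest for 6 of the 9 genes, and it was the highest treated array for 31.4% of all genes and 38.0% of the genes called lower. These differences between arrays are small beside the changes, and leaving out control replicate 3 left the median log2 change at -5.36.

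**Figure D4:**
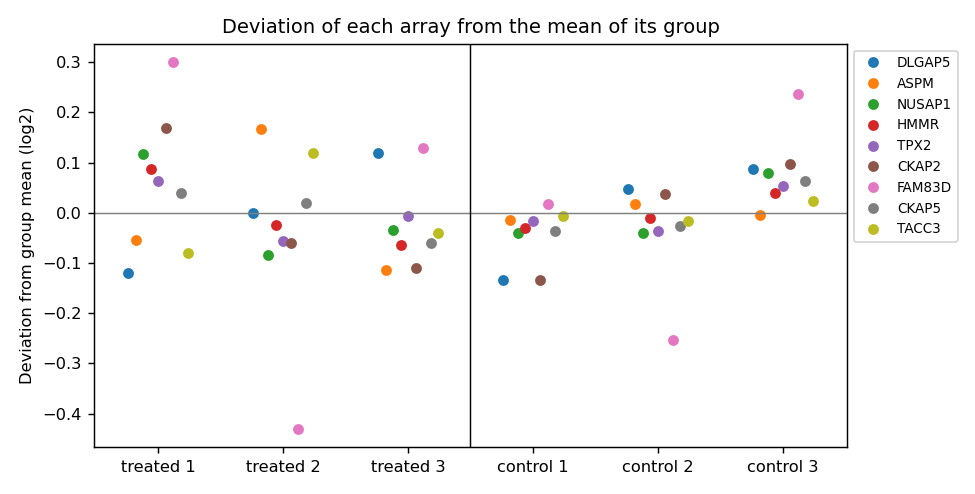
Deviation of each array from its group mean (log2) for the 9 measured spindle genes, treated arrays left of the line and control arrays right of it. Control replicate 3 lies above 0 for every gene except ASPM, and FAM83D has the widest spread, from -0.43 to 0.30.

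Partners and regulators of the spindle genes were read from 8 lists, some of which share genes. Among 10 measured binding partners, 7 were lower and 2 higher, with a median log2 change of -1.39, while 21.6% of all genes were lower and 24.0% higher. AURKA, the gene of Aurora A that TPX2 activates, had 8.41, 8.13 and 8.06 in treated arrays, against 12.05, 12.08 and 12.22 in control arrays. It fell by 3.92 (SE 0.10, limma adjusted p = 1.85e-07). KPNA2, an importin alpha that holds TPX2 outside mitosis, had a log2 change of -2.46, KIF22, the chromokinesin that FAM83D binds, of -2.41, and KNSTRN, the kinetochore partner of SPAG5, of -2.14, and all 3 passed the test. The microtubule-severing subunit gene KATNA1, whose product works with ASPM, had a log2 change of 0.03 that did not pass (limma adjusted p = 0.702).

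Other partners were chosen for mention after their values were seen. The clathrin heavy chain gene CLTC, whose product anchors TACC3 on spindle fibres, was 14.41 ± 0.03 in treated and 15.03 ± 0.02 in control cells (SD, n = 3 each), a fall of 0.62. The higher partners were PIK3C2A and CSNK1A1. PIK3C2A encodes a lipid kinase that also has a reported place in the TACC3 and clathrin complex, and it gave 13.68, 13.61 and 13.63 in treated arrays, against 12.39, 12.34 and 12.36 in control arrays, a rise of 1.28 (SE 0.04, limma adjusted p = 5.23e-07). CSNK1A1, the casein kinase 1 alpha gene that FAM83D recruits, rose by 0.69 (limma adjusted p = 7.27e-06). FAM83D and its kinase thus had changes of opposite sign, as did TACC3 and PIK3C2A.

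The Ran system and its spindle cargo had 7 lower genes of 9 measured, or 77.8% against 21.6% of all genes, none called higher, and a median log2 change of -0.77. BORA, an activator of Aurora A and of the kinase PLK1, fell by 3.01, and RANBP1, which assists GTP hydrolysis by Ran, changed by -0.68. NUMA1, a pole protein that anchors dynein, and RAE1, an mRNA export factor that also binds NUMA1, had log2 changes of 0.13 and 0.12 that did not pass (limma adjusted p = 0.0771 and 0.0726). With each array centred on its median both were called higher (limma adjusted p = 0.0433 and 0.0385). With genes of low mean signal left out, both were also called (limma adjusted p = 0.0396 and 0.0364). These calls thus lie close to the threshold and vary with the scaling and with the genes tested. Gamma-tubulin ring complex and augmin genes, whose products seed and branch microtubules, were lower in 14 of 15 measured members, or 93.3%, with a median of -0.81. The ring subunit genes TUBGCP5, TUBGCP4, TUBGCP2 and TUBGCP3 fell, with log2 changes of -2.05, -1.73, -1.10 and -1.08. TUBGCP6 had a change of 0.06 that did not pass (limma adjusted p = 0.377). Its mean signal was close to the array medians, at 6.46 in treated and 6.40 in control arrays, so a fall could be missed.

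Other spindle proteins that are not kinesins showed 9 lower and 2 higher genes of 12 measured, or 75.0% and 16.7% against 21.6% and 24.0% of all genes, with a median log2 change of -1.20. PRC1, the bundler of antiparallel microtubules in the spindle midzone, gave 6.43, 6.46 and 6.38 in treated arrays, against 12.21, 12.19 and 12.32 in control arrays, and fell by 5.82 (SE 0.05, limma adjusted p = 6.29e-09). The treated PRC1 signal was close to the array medians, so the size of its fall is uncertain. GPSM2, which links the cell cortex to spindle orientation, fell by 3.97. The higher genes, named after their values were seen, were NDEL1, a dynein regulator, at 1.07 and MAP9, a microtubule-associated protein, at 0.39.

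Of 13 measured paralogues of the spindle genes, 3 were lower, 2 were higher and 8 did not pass, at a median log2 change of -0.04. The share called lower was 23.1%, close to the 21.6% of all genes, and the share called higher was 15.4%, against 24.0% of all genes. CKAP2L, the mitotic relative of CKAP2, had the largest change of the list, at 7.62, 7.55 and 7.47 in treated arrays and 11.37, 11.42 and 11.48 in control arrays, a fall of 3.88 (SE 0.05, limma adjusted p = 2.17e-08). TACC1 and TACC2, relatives of TACC3, had log2 changes of 0.07 and 0.11 that did not pass (limma adjusted p = 0.284 and 0.119). TACC1 measured 8.74, 8.64 and 8.73 in treated arrays, against 8.61, 8.65 and 8.65 in control arrays, so its groups overlap. DLGAP4, a postsynaptic scaffold relative of DLGAP5, rose by 0.49, and the FAM83D relatives FAM83G and FAM83C changed by 0.46 and -0.35. FAM83G was below the array medians in control cells, so the size of its rise is uncertain. FAM83C was below them in treated cells, as were FAM83A, FAM83B, FAM83E, FAM83F, FAM83H, DLGAP2 and DLGAP3. Little can be read from these genes.

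Microtubule-associated proteins that act through the whole cell cycle changed in both directions. Of 21 measured, 10 were higher, 6 were lower and 5 did not pass, at a median log2 change of 0.11. The shares were 47.6% higher and 28.6% lower, against 24.0% and 21.6% of all genes. MAP2, a stabiliser best known from neuronal dendrites, rose by 1.40, and CLIP1, a tracker of growing plus ends, by 1.24. MAPRE2, an end-binding protein, fell by 1.96, and MAP1A, a lattice-binding protein, changed by -0.92. MAPRE1, the main end-binding protein EB1, and MAP7D1 had changes of -0.07 and 0.11 that did not pass (limma adjusted p = 0.245 and 0.233).

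Genes of the DREAM and MuvB complexes, of FOXM1 and of NF-Y, which regulate mitotic promoters, were also mixed. Of 15 measured, 6 were lower, 5 higher and 4 did not pass, that is 40.0% lower and 33.3% higher against 21.6% and 24.0% of all genes, and the list's median log2 change was -0.09. FOXM1, an activator of mitotic genes that docks on the MuvB complex, gave 7.23, 7.19 and 7.14 in treated arrays, against 11.72, 11.70 and 11.85 in control arrays, a fall of 4.57 (SE 0.05, limma adjusted p = 1.09e-08). MYBL2, the B-MYB partner of MuvB, RBL1, the pocket protein p107, and TFDP1, a dimer partner of E2F proteins, fell as well, with log2 changes of -3.65, -3.34 and -1.41. The MuvB subunit genes RBBP4 and LIN54, of which LIN54 encodes the subunit that binds the CHR, had changes of -0.09 and -0.10 that did not pass (limma adjusted p = 0.0829 and 0.0649), although repeated quantile normalization called both (adjusted p = 0.00414 and 0.0183). RBL2, E2F4 and E2F5 were named after their values were seen. RBL2, the pocket protein p130 of the repressive DREAM complex, rose by 0.65. E2F4 had a log2 change of -0.72 and E2F5 of 0.79, and both passed the test. The other MuvB subunit genes were also named after their values were seen. Among these LIN37 rose by 1.27 and LIN9 fell by 1.58 (limma adjusted p = 1.17e-06). The treated mean of LIN9, 6.31, was close to the array medians, so the size of its fall is uncertain. LIN52 had a change of -0.08 that did not pass (limma adjusted p = 0.291). Among NF-Y subunits, NFYA and NFYC rose by 0.42 and 0.22 and NFYB had a change of -0.08 that did not pass (limma adjusted p = 0.208). The anaphase-promoting complex is the ubiquitin ligase that degrades several spindle proteins. The genes of its activators and its inhibitor all fell, with log2 changes of -4.47 for CDC20, -1.99 for FBXO5 and -0.34 for FZR1. Treated means of 6.67 for CDC20 and 6.30 for FBXO5 were not far above the array medians, so the sizes of these falls are uncertain.

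**Figure D5:**
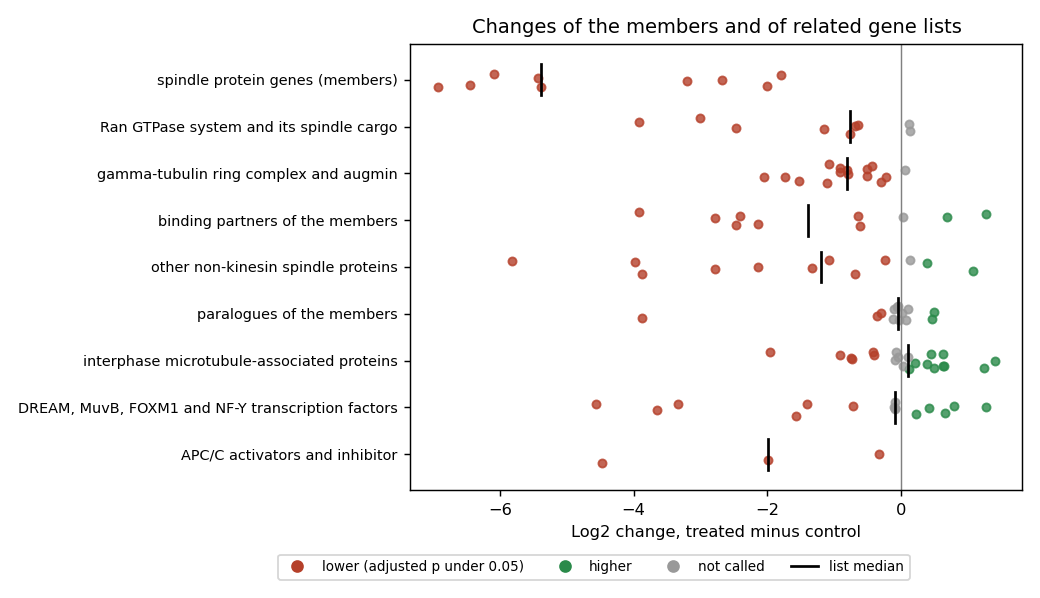
Log2 changes (treated minus control) of the 9 measured spindle genes in the top row and of 8 lists of related genes below, each point a gene, coloured by call (limma, adjusted p under 0.05), with black bars at list medians. The spindle genes have a median of -5.39, the other spindle lists lie mostly below 0, and the paralogues and interphase microtubule-associated proteins centre near 0.

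The arrays of a group correlated at 0.998 over the genes tested and those of different groups at 0.959 to 0.963 (Pearson, across genes, which are not independent replicates). Vimentin (VIM, 15.96 in treated and 16.67 in control cells) and CD44 (14.45 in treated and 14.01 in control cells), markers of mesenchymal glioblastoma lines, were high. Other markers of such lines, NES, CHI3L1 and SOX9, had log2 changes of -1.89, -2.86 and -1.86, and the astrocyte markers GFAP and S100B lay below the array medians in both groups. Markers of leukocytes (PTPRC, CD3E), endothelium (PECAM1, CDH5) and oligodendrocytes (MBP, MOG) and the epithelial genes EPCAM and CDH1 also lay below the array medians, whereas KRT8, SNAP25 and SYT1 lay above them in both groups. Of these, the neuronal genes SNAP25 and SYT1 had log2 changes of -2.51 and 0.80 and the epithelial gene KRT8 of 0.36, all called by limma.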

How the data were processed

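Gene expression was measured in 3 treated and 3 control samples on Affymetrix whole-transcript arrays. The authors deposited log2 values, 1 for each transcript cluster and array. Per the submitters' processing notes they used RMA and Transcriptome Analysis Console 4.0.1.36. RMA equalises the probe signals of the arrays before summarising them, so differences in total RNA between cells are largely removed. Between 181 and 196 values per array exceed 16, which a 16-bit reading cannot reach, so an unstated step may have widened the scale. Genome build and annotation release: not given in the sources used here.

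Rows with 1 symbol in the platform annotation (23781 of 67528, with 1543 carrying several symbols and 42204 unnamed here) were updated to RefSeq symbols and reduced to the highest-mean row per gene, for 22411 genes. The test was limma 3.58.1 under R 4.3.3 (linear model with empirical Bayes variances, 4 residual and 2.75 prior degrees of freedom, no level filter), tested on simulated data beforehand. A gene was called at an adjusted p under 0.05. For arrays, their number limits the precision. Genes named from a list were up to 4 called members with the smallest adjusted p and up to 2 uncalled members with the highest mean; others were named after their values were seen. Spindle genes and lists were chosen with earlier results of these data known. Promoter windows came from RefSeq (GRCh38.p14), 1 per gene. Alternatives were a block for replicate number, dropping each array, a level filter, all rows, averaged rows, centring, repeated quantile normalization, a compressed scale, trend with robust estimation, array weights, a minimum change and protein-coding genes alone. Figures were drawn with matplotlib 3.10.9.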

Additional observations from a re-analysis of the deposited data

How the results depend on the processing

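The 9 spindle genes were lower and called under all 17 alternatives, including a test against a minimum log2 change of 1, with adjusted p of 0.00106 or less. Leaving out each array in turn gave 9 called spindle genes each time, a median log2 change of -5.42 to -5.36, 9298 to 9725 called genes in all and 68 to 70 called genes in the related lists, against 71 in the full data. Compressing the scale to a highest value of 16 moved the median of the spindle genes to -4.59, by construction. Testing against a minimum log2 change of 1 reduced the called genes to 1508 of 22411, against 10212, and those in the lists to 25. The labels do not say whether a replicate number marks a shared culture or day. Deviations of same-numbered arrays from their group means correlated at -0.08, 0.04 and -0.05. With so few arrays in a group these values cannot exclude pairing. With the replicate block, 9 spindle genes were called with a median of -5.39, 9577 genes were called in all and 69 in the lists. Low treated signal limits the sizes for ASPM, HMMR and FAM83D, which lay below the array medians. It also limits them for DLGAP5 and TACC3, which lay just above those medians, and for NUSAP1, a little further above. Among list genes named as not passing, NUMA1 was called under 3 of the alternatives, RAE1 under 4, RBBP4 under 3 and LIN54 under 4.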
